A study of Mus musculus with 6 samples.

Results

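The genes described here are 35 genes of the walls of brain blood vessels. They were taken by gene symbol as 10 endothelial identity genes, 5 junction genes, 9 barrier transporters and 11 mural genes. They are 35 of 54787 genes with a symbol, and 177 of the 155855 isoforms summed into genes. RNA came from the prefrontal cortex of male C57BL/6 mice, which entered the experiment at 5 weeks of age and were sampled at 30 weeks. The 3 control samples came from mice given water by gavage (0 mg/kg body weight of polystyrene nanoparticles, PS NPs). The 3 PS_high samples came from mice gavaged with 50 mg/kg body weight of PS NPs daily for 6 months. No genetic change is named for either group. The labels list separate samples and do not say whether each is 1 animal or a pool, so p-values measure only the spread between these samples, which may be technical.

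Endothelial cells line the vessels of the brain and form the blood-brain barrier. Tight junctions between them close the path between cells, and transporters carry glucose, amino acids, lactate, iron and lipids across them or pump drugs back into the blood. Pericytes and smooth muscle cells, together called mural cells, wrap the vessel wall and help to keep the barrier tight. Wnt and growth factor signals from neighbouring cells maintain the barrier state of the endothelium.

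Libraries held 53344395 to 66004386 estimated counts. Gene counts were scaled to library size with TMM factors (CPM), and 20272 genes with a mean of at least 0.5 FPKM, a level scaled to library size and isoform length, were tested. PS_high replicate 1 stood apart from the other libraries. In it, 19.5% of all tested genes lay more than 0.5 log2 units below the median of the other 5 libraries, against 10.2% to 14.6% of genes in each other library. For the tested genes described here and for list medians, fold changes that move by over 1.5 times without it are also given without it. Other genes named from the lists are given with all libraries only. All 10 neuronal and all 10 astrocyte markers were detected in every library. The summed level of 10 choroid plexus markers ranged from 25.3 to 905 CPM between libraries, with 3 of the 10 at 0 in control 1.

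All 35 genes were detected in every library, the lowest count being 18 for Tagln. Per length, the order of the mean levels over 6 libraries was led by the transferrin receptor Tfrc at 34.4 ± 2.98 FPKM (SD, n = 6), the junction scaffold Tjp1 at 26.1 ± 3.25 FPKM and the organic anion transporter Slco1a4 at 23.7 ± 3.17 FPKM. Tjp1 and Slco1a4 differed by less than their spread. Isoforms assembled from the reads carried 76.3% of the counts of Tfrc, 63.5% of Tjp1 and 45.4% of Slco1a4, so these levels are uncertain. The pericyte gene Rgs5 followed at 13.6 ± 0.543 FPKM, the thyroxine transporter Slco1c1 at 11.2 ± 1.61 FPKM and the endothelial surface protein Ly6c1 at 9.92 ± 1.001 FPKM. Slco1c1 and Ly6c1 also lay within their spread of each other. Several of the transporters and Tjp1 are also made by other brain cells, so their levels in a tissue block are not those of vessels alone. The defining smooth muscle genes were low, with the contractile actin Acta2 at 0.772 FPKM, the actin-binding protein Tagln at 0.405 FPKM and the myosin Myh11 at 0.208 FPKM.

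The filter on low levels left 30 of the 35 genes for testing. Tie1, Kcnj8, Tagln, Myh11 and Anpep fell below it and were fitted only without the filter. In bulk tissue, fewer vessel cells and less RNA per vessel cell cannot be told apart.

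**Figure D1:**
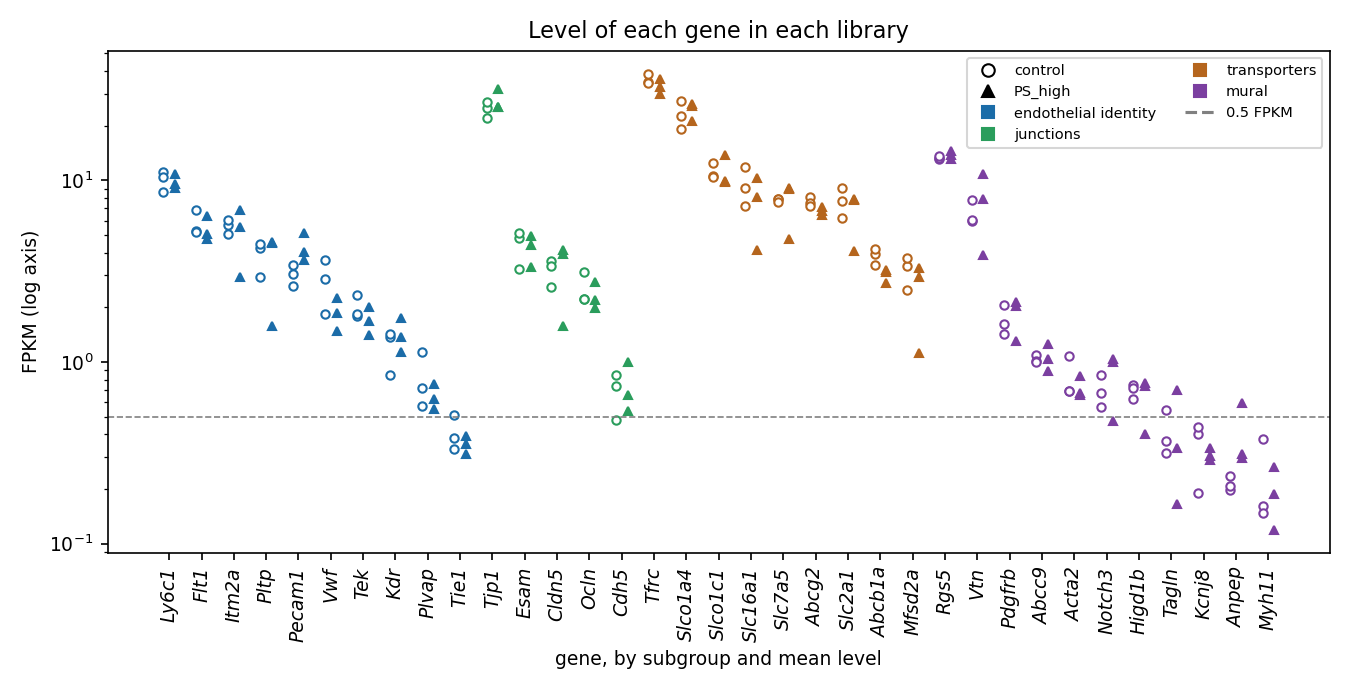
FPKM on a log axis for each of the 35 genes in each of the 6 libraries, by subgroup (colour) and mean level, with open circles for control, filled triangles for PS_high and a dashed line at the 0.5 FPKM mean used as the filter. Levels run from 34.4 FPKM for Tfrc down to 0.208 FPKM for Myh11.

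Promoter windows from RefSeq (build GRCm38.p6, 250 bases before to 50 after a start) matched 25 of the 35 genes by symbol. For 18 of the 25 the RefSeq start lay within 50 bases of that of the isoform with most counts. For Slco1c1 and Tjp1 it lay 15162 and 156452 bases away, so those windows may not serve the isoform counted. The windows below are shown because the first 4 genes had a PS_high 1 value more than 0.5 log2 units below the other libraries, while the fifth, Slco1a4, was highest in PS_high 1. They are printed 5′ to 3′ on the strand of the gene. Capitals mark matches to 3 motifs searched on both strands, overlapping copies included. The first is the box TATAAA, which helps to position the start of transcription. The second, known as a GC box and bound by Sp family factors, reads GGGCGG. The last is the core of Wnt-responsive TCF sites, spelled CTTTGA. A match on the other strand appears in capitals as its reverse complement. The starts of Cldn5 and Mfsd2a in RefSeq coincide with those of the table's isoforms, and those of Itm2a, Slc2a1 and Slco1a4 lie 16, 34 and 49 bases away.
The Cldn5 window is chr16:18776597-18776896 on the plus strand, the Mfsd2a window chr4:122961139-122961438 on the minus strand and the Slc2a1 window chr4:119108495-119108794 on the plus strand. The Itm2a window is chrX:107403311-107403610 and the Slco1a4 window chr6:141856171-141856470, both on the minus strand.
Cldn5: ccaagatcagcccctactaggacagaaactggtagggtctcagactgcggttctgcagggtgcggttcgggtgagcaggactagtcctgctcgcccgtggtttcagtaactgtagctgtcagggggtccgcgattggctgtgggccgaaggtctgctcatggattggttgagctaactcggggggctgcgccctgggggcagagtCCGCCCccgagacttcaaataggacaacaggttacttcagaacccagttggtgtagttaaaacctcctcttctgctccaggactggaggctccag
Mfsd2a: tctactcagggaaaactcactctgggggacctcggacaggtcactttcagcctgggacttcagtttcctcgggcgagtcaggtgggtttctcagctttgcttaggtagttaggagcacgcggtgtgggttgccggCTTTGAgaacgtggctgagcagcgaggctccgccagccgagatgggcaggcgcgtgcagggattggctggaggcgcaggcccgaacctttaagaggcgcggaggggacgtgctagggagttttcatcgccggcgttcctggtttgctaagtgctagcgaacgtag
Itm2a: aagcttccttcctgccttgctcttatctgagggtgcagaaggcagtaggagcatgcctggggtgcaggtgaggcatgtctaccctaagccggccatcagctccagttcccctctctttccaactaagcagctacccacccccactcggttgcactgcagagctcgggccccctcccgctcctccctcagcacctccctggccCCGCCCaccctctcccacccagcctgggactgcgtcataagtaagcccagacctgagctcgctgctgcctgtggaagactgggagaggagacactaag
Slc2a1: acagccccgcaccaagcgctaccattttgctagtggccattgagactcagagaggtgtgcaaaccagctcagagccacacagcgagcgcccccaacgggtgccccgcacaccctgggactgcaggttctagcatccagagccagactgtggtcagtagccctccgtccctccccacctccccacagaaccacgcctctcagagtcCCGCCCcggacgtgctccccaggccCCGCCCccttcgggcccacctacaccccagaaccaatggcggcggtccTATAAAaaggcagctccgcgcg
Slco1a4: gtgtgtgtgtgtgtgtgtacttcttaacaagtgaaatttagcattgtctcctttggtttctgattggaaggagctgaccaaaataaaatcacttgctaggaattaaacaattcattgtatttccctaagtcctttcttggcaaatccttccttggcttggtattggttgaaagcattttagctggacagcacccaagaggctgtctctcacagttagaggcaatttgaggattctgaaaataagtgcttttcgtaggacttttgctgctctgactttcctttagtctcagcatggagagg
Cldn5, Itm2a and Slc2a1 each hold a GC box, Mfsd2a the CTTTGA core and Slco1a4 none of the 3. Slc2a1 also holds the letters TATAAA, but 28 bases after its RefSeq start. Over the 25 matched windows, 14 (56.0%) held GGGCGG, against 35.66% of all 32851 windows of the same length. Each matched gene gave only the window nearest its main isoform, Slco1c1 and Tjp1 included. The background counts every listed window of every gene, expressed or not. TATAAA was found in 7 of 25 (28.0%) against 13.62%, and CTTTGA in 3 of 25 (12.0%) against 16.00%. The TATAAA letters began 31 bases before the RefSeq start in Flt1, 143 before in Ly6c1, and 137 and 135 before in Vtn. In Pltp, Slco1c1, Slc2a1 and Abcg2 they began after it. The matched windows were also richer in G and C, with a median of 60.3% against 52.7% over all windows. These matches describe letters in the windows and say nothing of binding.

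The first comparison asked whether gavage with PS NPs for 6 months went with a change in these genes. None of the 30 tested genes passed an adjusted p under 0.05 in edgeR's quasi-likelihood test, where 0.0247% of all tested genes did (5 of 20272). None had an unadjusted p under 0.05 either, against 2.73% of all tested genes, and the smallest was 0.159 for the efflux pump Abcb1a. DESeq2 and limma also passed 0 of the 30, where DESeq2 passed 0.232% of all tested genes and limma none. For none of the 30 were the 3 PS_high libraries all above or all below the 3 controls, a pattern seen in 7.09% of all tested genes (3.34% higher and 3.75% lower). The fitted log2 fold change, PS_high against control, was above 0 for 18 genes and below 0 for 12, and limma on FPKM put 8 of the 18 below 0. Its median was 0.034, against -0.007 over all tested genes, and its range was -0.40 for Mfsd2a to 0.25 for Kdr. Every adjusted p was 0.9997 in edgeR with Benjamini-Hochberg adjustment. A p that misses the threshold does not show equal levels, and the 95% intervals below give the differences these 6 libraries leave possible.

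**Figure D2:**
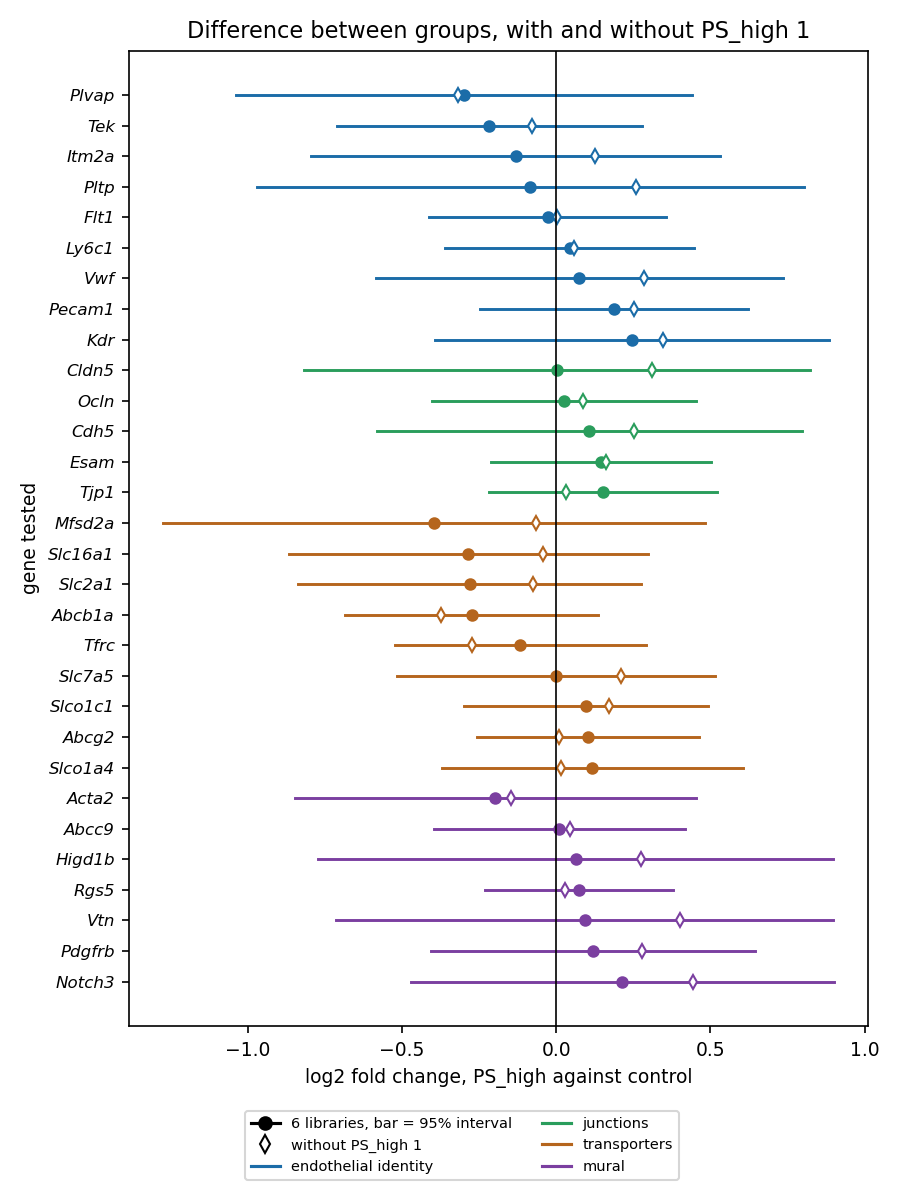
Log2 fold change (PS_high against control) of the 30 tested genes by subgroup, with points for all 6 libraries, bars for their 95% intervals and open diamonds for the value without PS_high 1. The point estimates run from -0.40 for Mfsd2a to 0.25 for Kdr, and each bar crosses 0.

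Among the 10 identity genes, 9 were tested, with 4 fold changes above 0, 5 below 0 and a median of -0.028. Ly6c1, a surface protein of capillary endothelium, measured 10.3, 11.4 and 11.7 CPM in controls 1 to 3 and 11.3, 11.5 and 11.6 CPM in PS_high 1 to 3. The PS_high values fell inside the control range, and the log2 fold change was 0.043 (SE 0.173, 95% interval -0.36 to 0.45). Reads of Ly6c1 may be shared with its close relative Ly6c2, so its count is uncertain.

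Flt1, a receptor that binds VEGF, measured 48.3, 59.1 and 44.4 CPM in the controls and 47.9, 54.8 and 46.2 CPM in the PS_high libraries. Again no PS_high value lay outside the control range. Its log2 fold change was -0.028 (SE 0.164, 95% interval -0.41 to 0.36). Kdr, the main signalling receptor for VEGF, had the highest fitted value of all 30 genes, 0.25 (95% interval -0.39 to 0.89), with control 3 the lowest library and PS_high 2 the highest. The adhesion molecule Pecam1 stood at 0.19 (95% interval -0.25 to 0.62), and the angiopoietin receptor Tek at -0.22 (95% interval -0.71 to 0.28). Plvap, which builds the diaphragms of leaky vessels and is scarce in barrier vessels, had a mean of 0.725 FPKM and a log2 fold change of -0.30 (95% interval -1.04 to 0.44). The clotting protein Vwf stood at 0.075 (95% interval -0.58 to 0.73), but at -0.52 and -0.38 with limma on log2(FPKM + 0.1) and log2(FPKM + 1). Tie1, a partner of Tek, lay below the filter and ranged from 2.15 to 2.53 CPM with overlapping groups.

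Fold changes of the 5 junction genes were above 0 in the fit, by 0.15 or less, with a median of 0.11, but those of Cldn5, Ocln and Esam were below 0 with limma on FPKM. Cldn5, the claudin that seals brain endothelial junctions, measured 8.04, 7.00 and 5.32 CPM in the controls and 3.66, 8.198 and 8.53 CPM in the PS_high libraries. PS_high 1 was the lowest of the 6 libraries for Cldn5, and PS_high 2 and 3 were the highest. The log2 fold change was 0.0027 (SE 0.351, 95% interval -0.82 to 0.82), and without PS_high 1 it was 0.31, with an edgeR p of 0.238 before adjustment. Tjp1, which ties claudins to the actin cytoskeleton, measured 228, 188 and 198 CPM in the controls and 267, 211 and 205 CPM in the PS_high libraries. Here PS_high 1 was the highest library, opposite to Cldn5, and the groups overlapped. The log2 fold change of Tjp1 was 0.15 (SE 0.159, 95% interval -0.22 to 0.52). The adhesion molecule Esam measured 34.6, 32.0 and 40.7 CPM in the controls and 38.9, 38.8 and 40.8 CPM in the PS_high libraries, a log2 fold change of 0.14 (SE 0.153). Its PS_high libraries lay close together, and control 3 reached their level. Ocln, a second tight junction protein, stood at 0.025 (95% interval -0.40 to 0.45), and the endothelial cadherin Cdh5 at 0.11 (95% interval -0.58 to 0.80).

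The 9 transporters were all tested, with 3 fold changes above 0, 6 below 0 and a median of -0.12. Tfrc, which brings iron into the endothelium, measured 257, 245 and 214 CPM in the controls and 268, 184 and 209 CPM in the PS_high libraries. The highest and the lowest library were both PS_high, and the log2 fold change was -0.12 (SE 0.175). Slco1a4 measured 180, 140 and 114 CPM in the controls and 180, 129 and 162 CPM in the PS_high libraries. The controls alone spanned nearly the whole range of Slco1a4, whose log2 fold change was 0.12 (SE 0.209). Slc2a1, the glucose transporter of the barrier, measured 32.5, 36.8 and 45.3 CPM in the controls and 22.1, 37.2 and 34.9 CPM in the PS_high libraries. PS_high 1 was at 68.2% of the next lowest library. The log2 fold change of Slc2a1 was -0.28 (SE 0.238, 95% interval -0.84 to 0.28), and it was -0.076 without PS_high 1.

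The lipid transporter Mfsd2a, which is also known to hold back transcytosis, had the lowest fitted value of the 30, -0.40 (95% interval -1.28 to 0.48). Without PS_high 1 it was -0.064. The monocarboxylate transporter Slc16a1 went from -0.29 (95% interval -0.87 to 0.30) to -0.043 when that library was left out. Slc7a5, which carries large neutral amino acids, had a log2 fold change of -0.00079 with all libraries and 0.21 without it. The drug efflux pump Abcb1a did not follow this course. It stood at -0.27 (95% interval -0.68 to 0.14) with all libraries and at -0.37 without PS_high 1, where its unadjusted edgeR p was 0.0628. Abcb1a overlaps Rundc3b, a more abundant gene on the other strand (59.4 CPM against 29.2 CPM), and has a near copy, Abcb1b. No source used here says whether the counting used the strand, so the Abcb1a count is uncertain. Of the Abcb1a counts, 93.1% were on isoforms assembled from the reads. The other efflux pump of the list, Abcg2, stood at 0.10 (95% interval -0.26 to 0.46), and Slco1c1 at 0.098 (95% interval -0.30 to 0.49). Of the Slco1c1 counts, 85.1% were on assembled isoforms, and with annotated isoforms alone its value was -2.04, so its level is uncertain.

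Of the 11 mural genes, 7 were tested, with 6 fold changes above 0 (Higd1b below 0 with limma on FPKM), 1 below 0 and a median of 0.073. Rgs5, a brake on G-protein signals in pericytes, measured 83.6, 78.8 and 80.1 CPM in the controls and 91.1, 77.3 and 86.6 CPM in the PS_high libraries. It was the most tightly measured of the 30 genes, with a log2 fold change of 0.073 and a 95% interval of -0.23 to 0.38. Vtn, a matrix glycoprotein made by pericytes, measured 13.6, 13.5 and 17.3 CPM in the controls and 8.42, 16.5 and 22.4 CPM in the PS_high libraries. The lowest and the highest library of Vtn were both PS_high, and the log2 fold change was 0.092 (95% interval -0.71 to 0.90). Pdgfrb, the receptor through which endothelial PDGF recruits pericytes, measured 12.3, 16.3 and 12.7 CPM in the controls and 11.6, 17.1 and 16.2 CPM in the PS_high libraries. PS_high 1 was the lowest library and PS_high 2 the highest, giving a log2 fold change of 0.12 (95% interval -0.41 to 0.64). Notch3, a receptor of mural cells, stood at 0.21 (95% interval -0.47 to 0.90). Abcc9, a potassium channel subunit of pericytes, stood at 0.010 and the pericyte gene Higd1b at 0.063.

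For smooth muscle, Acta2 measured 2.24, 3.23 and 2.04 CPM in the controls and 2.03, 1.99 and 2.52 CPM in the PS_high libraries. Control 2 was the highest library, and the log2 fold change was -0.20 (95% interval -0.85 to 0.45). Actin genes are near copies of each other, which leaves low Acta2 counts uncertain. Tagln ranged from 0.360 to 1.35 CPM and Myh11 from 1.17 to 2.52 CPM, in both cases with PS_high libraries at both ends. Tagln also overlaps Pcsk7 on the other strand, at 15.4 CPM against 0.782 CPM for Tagln itself. Kcnj8, the channel subunit that pairs with Abcc9, ranged from 0.773 to 1.62 CPM.

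Anpep, an aminopeptidase on the surface of pericytes, was the 1 gene of the 35 whose groups did not overlap. It measured 1.20, 0.957 and 1.31 CPM in the controls and 2.08, 1.66 and 1.74 CPM in the PS_high libraries, with all PS_high values above all controls. In the fit without a filter its log2 fold change was 0.65 (SE 0.294) and its edgeR p was 0.0584 before and 0.99999 after adjustment. Without that filter, 3.11% of all genes had groups that did not overlap in this direction and 3.65% in the other, 6.76% in all. In the same fit 0 of the 35 genes passed at an adjusted p under 0.05 and 0 at an unadjusted one, against 0.00542% and 2.63% of all genes. Its lowest count was 48. In the table it lies on chromosome 7 from 79821803 to 79848210.

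**Figure D3:**
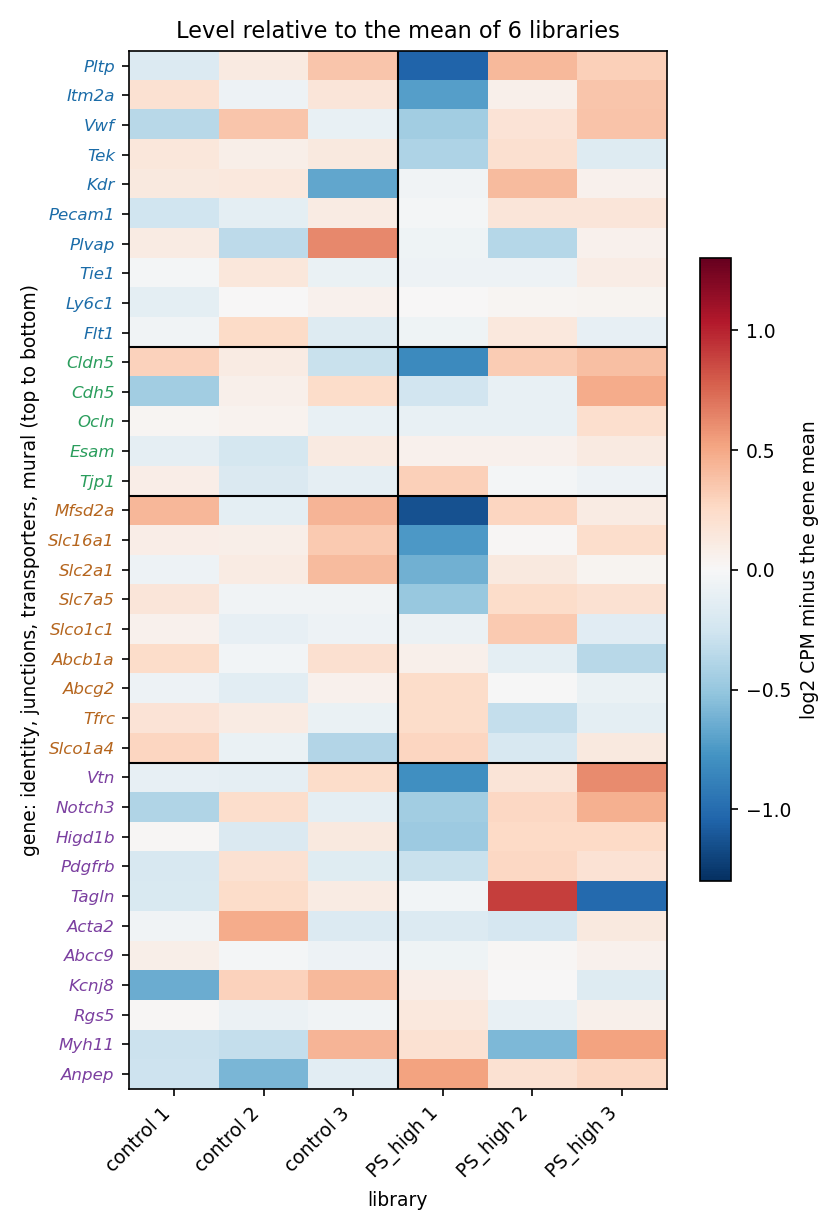
Log2 CPM of each of the 35 genes in each library minus the mean of that gene over 6 libraries, with genes in rows by subgroup and, within a subgroup, by their value in PS_high 1. Blue cells collect in the PS_high 1 column, with the lowest for Mfsd2a, Pltp and Cldn5, while Tjp1, Slco1a4 and Tfrc are above their means there.

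PS_high 1 stood apart in these genes too. It was the lowest library for 13 of the 30 tested genes (43.3%), against 24.6% of all tested genes. In it, 12 of 30 (40.0%) lay more than 0.5 log2 units below the median of the other 5 libraries, against 19.5% of all tested genes. In controls 1 and 3 the share was 10%, and in the other 3 libraries it was 0%. PS_high 1 was picked out after its values were seen, so these counts are a description with no test.

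The 12 genes came from all 4 subgroups, and the values quoted here were likewise chosen after they were seen. Mfsd2a stood 1.41 log2 units below the median of the others (3.92 CPM, against 7.86 to 11.6 CPM elsewhere). Pltp, a phospholipid transfer protein, measured 9.79, 12.0 and 14.2 CPM in the controls and 5.37, 14.9 and 13.8 CPM in the PS_high libraries. Itm2a, a membrane protein enriched in barrier endothelium, measured 15.7, 13.04 and 15.2 CPM in the controls and 8.33, 14.3 and 17.5 CPM in the PS_high libraries. For these 3 genes PS_high 2 and 3 lay within or above the range of the controls. Slc16a1 reached 36.3 CPM in PS_high 1 against 61.3 to 77.1 CPM in the others, and Slc7a5 26.7 CPM against 36.3 to 44.4 CPM. The rest of the 12 were Cldn5, Vtn, Slc2a1, Notch3, Vwf, Higd1b and Tek, at -1.13 to -0.53 log2 units. Just inside the limit were Tek at -0.53 and Higd1b at -0.59, and just outside it Pdgfrb at -0.48.

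In the other direction, PS_high 1 was the highest library for 5 of the 30 genes (16.7%), against 23.2% of all tested genes. In it, 0 of the 30 lay more than 0.5 log2 units above the median of the others, against 13.3% of all tested genes. Tjp1, Slco1a4, Tfrc, Abcg2 and Rgs5 were highest in PS_high 1, by 0.38, 0.36, 0.32, 0.30 and 0.19 log2 units over the median of the others. Against the median of the others, the identity genes in PS_high 1 were all below 0, from -1.35 (Pltp) to -0.012 log2 units (Flt1). The mural genes, untested ones included, ran from -0.97 (Vtn) to 0.66 (Anpep). Cldn5 and Itm2a were low, and Ly6c1, Flt1 and Pecam1 were within 0.13 log2 units of the median of the other libraries. Slco1a4 and Rgs5 were above that median, but Slco1a4 at 180.3 CPM barely passed control 1 at 180.2 CPM. Summed over each subgroup, PS_high 1 was the lowest library for the identity genes at 122 CPM, against 138 to 161 CPM. For the junction genes it was the highest at 326 CPM, against 246 to 288 CPM. The transporter sum was 675 CPM in PS_high 1, against 614 to 727 CPM, and the mural sum 137 CPM, against 135 to 158 CPM. The junction sum is mostly Tjp1.

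Other values differed in this library as well. Marker scores are the mean log2 deviation of a list from its average over libraries. They were lowest in PS_high 1 for 7 tested oligodendrocyte precursor genes (-0.427) and 9 tested microglial genes (-0.365). For 10 astrocyte genes the score was -0.090 and for 10 neuronal genes 0.006. The score of each vessel subgroup was also lowest in PS_high 1, at -0.308 for identity, -0.157 for junction, -0.248 for transporter and -0.288 for mural genes. The score of 7 tested red cell genes was lowest there too (-0.678), and that of the 2 tested leukocyte genes was highest (1.33). The summed level of all 10 leukocyte genes was 19.6 CPM in PS_high 1, with 3 of the 10 at 0, and 6.87 to 20.0 CPM in the others, with 5 to 7 at 0.

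The low values also went with transcript length. Among the 30 genes, the 9 whose main isoform was under 2500 bases had a median of -0.87 log2 units in PS_high 1 and the 21 longer ones -0.12. Over all tested genes the same medians were -0.040 and 0.020, and over genes with a protein-coding main isoform -0.17 and -0.040. Spearman's rho between length and the PS_high 1 value was 0.42 across the 30 genes, which share 1 library and are not replicates, against 0.050 across all tested genes. The share of counts from isoforms inside introns was 19.1% in PS_high 1 and 19.0% in control 1, with 15.0% to 18.03% in the others. The part of cell markers, length and intronic RNA in the low values was not tested.

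**Figure D4:**
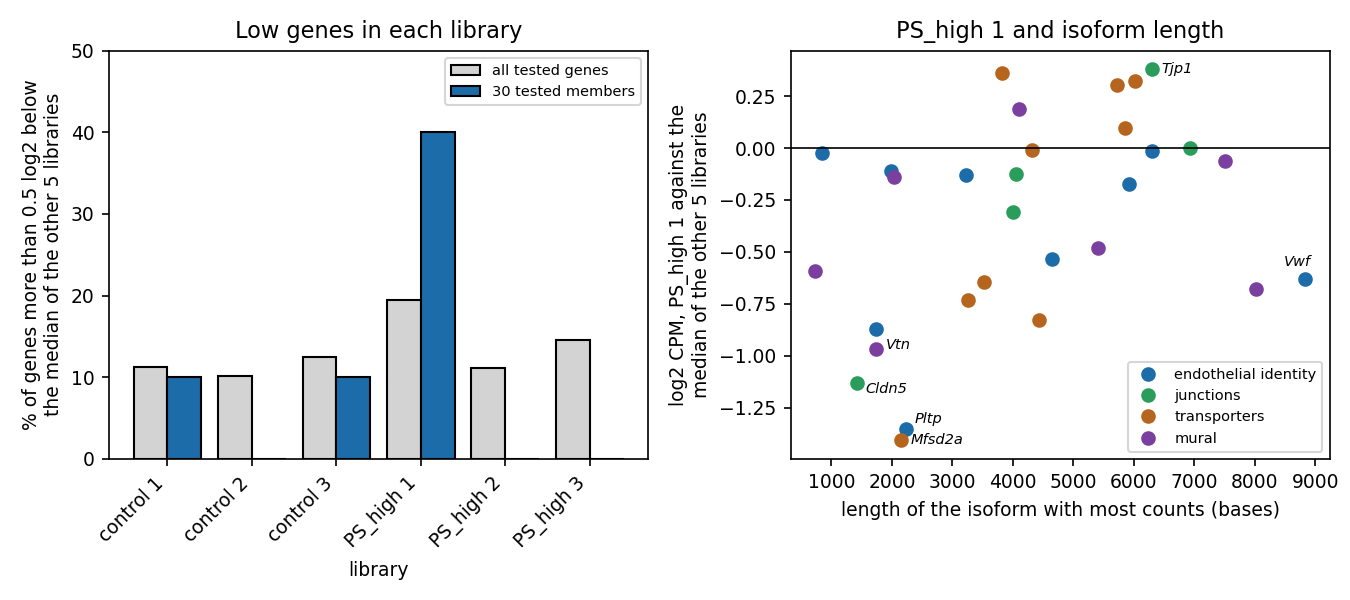
Left, the percentage of genes more than 0.5 log2 units below the median of the other 5 libraries, for each library, in all tested genes (grey) and the 30 tested members (blue), from 40.0% in PS_high 1 to 0% in 3 libraries. Right, the PS_high 1 value of each tested member against the length of its main isoform in bases, where Mfsd2a, Pltp, Cldn5, Vtn and Itm2a form the low group of short isoforms and Tjp1 is highest.

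Without PS_high 1, 0 of the 30 genes passed edgeR's test at an adjusted p under 0.05 and 0 at an unadjusted p under 0.05, against 0.0839% and 3.47% of all tested genes. The lone pair of PS_high libraries left was then fitted against the 3 controls. The medians of the subgroups became 0.13 for identity, 0.16 for junctions, -0.043 for transporters and 0.28 for mural genes, against 0.073 for all 30 and -0.005 for all tested genes. Among the identity genes, Flt1 became 0.0027, Tek -0.079, Vwf 0.28, Itm2a 0.13 (from -0.13) and Pltp 0.26 (from -0.084). Among the junction genes, Ocln became 0.086, Cdh5 0.25 and Tjp1 0.031. These junction values lay higher than with all libraries except that of Tjp1, for which PS_high 1 was the highest library. Among the transporters, Slco1a4 became 0.014, Slco1c1 0.17, Abcg2 0.010 and Tfrc -0.27. Among the mural genes, Pdgfrb became 0.28, Rgs5 0.028, Abcc9 0.046, Vtn 0.40, Higd1b 0.28 and Notch3 0.44.

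The wider vessel programme was read from 7 lists of other genes, and no gene of any list passed edgeR's test at an adjusted p under 0.05. Of 18 tested genes of Wnt signalling at the barrier, 12 had fold changes above 0 (median 0.053, or 0.081 without PS_high 1). The ligand Wnt7b stood at -0.42 and the transcription factor Tcf7l2 at 0.53, with edgeR p-values of 0.177 and 0.204 before adjustment. Of 29 growth factor and Notch genes, 18 were above 0 (median 0.030, or 0.107 without PS_high 1). In this list 1 gene, Tgfb1, had an unadjusted p under 0.05, against 2.73% of all tested genes, and groups did not overlap for 3 genes that were higher and 1 that was lower, against 3.34% and 3.75%. Tgfb1 encodes a signal between endothelium and pericytes and measured 1.34, 1.22 and 2.00 CPM in the controls and 2.27, 2.55 and 3.24 CPM in the PS_high libraries, without overlap. Its log2 fold change was 0.82 and its edgeR p was 0.0286 before and 0.9997 after adjustment. Apln, the ligand of the apelin receptor, went the other way without overlap, from 8.47 to 11.8 CPM in the controls to 5.92 to 8.41 CPM in the PS_high libraries (-0.46). The other two higher genes without overlap were the ephrin Efnb2 (0.26) and the transcription regulator Id1 (0.23), named for that pattern. In the Wnt list the same held for Axin2, a target of the pathway, at 0.34.

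Of 16 basement membrane genes, 12 were above 0 with a median of 0.15, with the laminin chain Lama4 at 0.41 and the nidogen Nid2 at 0.36. Of 12 genes of caveolae and transcytosis, 5 were above 0 (median -0.081, or -0.020 without PS_high 1), with the lipoprotein receptor Lrp8 at -1.04 and the caveolar coat protein Cav1 at -0.65. Lrp8 ranged from 22.9 to 123 CPM among the controls alone. Of 9 tested genes of endothelial activation, 8 were above 0 (median 0.24, or 0.14 without PS_high 1), with the thrombin-binding receptor Thbd at 0.31 and the leukocyte adhesion molecule Vcam1 at 0.21. The selectin Sele was at 0 in every library. For each of the 9 activation genes the groups overlapped, with values from -0.44 to 0.80.

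Of 41 further endothelial genes, 24 were above 0 (median 0.073), led by Foxc1 at 0.48 and the matrix protein Mgp at 0.59. Mgp is also in the fibroblast list given below, so these lists are not separate. Groups did not overlap for 3 that were higher, Igfbp7 (0.51), Ramp2 (0.31) and Slc3a2 (0.21), and 1 that was lower, Cldn12 (-1.14), again named for that pattern. Over all tested genes the shares were 3.34% higher and 3.75% lower. Cldn12 measured 2.31 CPM in PS_high 2, against 59.9 and 62.6 CPM in the other PS_high libraries and 84.5 to 101 CPM in the controls. Of 20 further mural genes, 13 were above 0 (median 0.067). Groups did not overlap for 2 of the 20, Tbx18 (0.43) and Gucy1a1, both higher, against 3.34% of all tested genes. An unadjusted p under 0.05 was reached by 1 of the 20, against 2.73%. Gucy1a1, a subunit of the receptor for nitric oxide, did not overlap between groups, from 132 to 188 CPM in the controls to 207 to 250 CPM in the PS_high libraries. Its log2 fold change was 0.43 and its edgeR p was 0.0405 before and 0.9997 after adjustment. The transporter Slc6a20a stood at 0.47. Genes of meningeal and perivascular fibroblasts also stood above 0 beside these vessel lists. Of 12 tested, 11 had fold changes above 0 with a median of 0.40. Groups did not overlap for 3 of the 12 (Ogn, Slc13a4 and Ptgds), all higher, against 3.34% of all tested genes. For 2 of these (Ogn and Slc13a4) the unadjusted edgeR p was under 0.05, against 2.73% of all tested genes. The summed level of the fibroblast genes was 234 to 316 CPM in the controls and 308 to 434 CPM in the PS_high libraries. The fibroblast list of 15 genes had 1 gene at 0 in control 1 and none elsewhere. Choroid plexus genes had a median of 0.82 (1.27 without PS_high 1), with sums of 25.3 to 507 CPM and 34.2 to 905 CPM. The part of these tissues in the mural, matrix and endothelial values was not tested.

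At the level of isoforms, 72 of the 177 were tested and none passed edgeR's test at an adjusted p under 0.05, against 0.00433% of 69330 isoforms. An unadjusted p under 0.05 was reached by 3 of the 72, against 3.58% of all tested isoforms, and 5 had groups that did not overlap, 4 higher and 1 lower, against 8.16% of all (3.85% higher and 4.31% lower). DESeq2 passed 1 of the 72, against 1.41% of all tested isoforms. This was ENSMUST00000135481, an isoform of Pecam1 annotated as a retained intron on chromosome 11 from 106688783 to 106691347. It held 18, 24 and 15 counts in the controls and 65, 117 and 33 in the PS_high libraries, so that each PS_high library was above each control. It made up 2.94% of Pecam1 counts in the controls and 10.8% in the PS_high group. Its log2 fold change was 2.09 (SE 0.592), with an adjusted p of 0.99999 in edgeR and 0.0454 in DESeq2. The other alternatives gave adjusted p-values of 0.733 to 1.

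Other isoforms of low p stood in Esam, Slco1a4, Vwf, Slco1c1, Tfrc and Ly6c1. MSTRG.40160.5, an isoform of Esam assembled from the reads, held 574, 469 and 395 counts in the controls and 621, 1165 and 901 in the PS_high libraries (log2 fold change 1.07, edgeR p 0.0334 before and 0.99999 after adjustment). Together with a second assembled isoform it carried most of the Esam counts, 94.7% of which were on assembled isoforms. Both run on over the neighbouring gene Vsig2, which has 0.423 CPM of its own, and with annotated isoforms alone the Esam value was -0.83 instead of 0.14. The Esam level is therefore uncertain. MSTRG.33939.6, an assembled isoform of the thyroxine transporter Slco1c1, held 368, 555 and 633 counts in the controls and 992, 602 and 773 in the PS_high libraries, which overlapped as counts but not as CPM.

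The short Vwf transcript ENSMUST00000146264 held 13, 61 and 53 counts in the controls and 12, 9 and 16 in the PS_high libraries (log2 fold change -1.64, edgeR p 0.0503 before adjustment). MSTRG.15259.2 of Tfrc had 639 counts in PS_high 3 and 7 to 30 in every other library, so its value of 3.78 rests on 1 library and was -0.81 without it. ENSMUST00000185200 of Ly6c1 held 38, 51 and 58 counts in the controls and 42, 18 and 23 in the PS_high libraries (log2 fold change -0.71). ENSMUST00000032364 of Slco1a4, low in level and named here for its p, held 43, 57 and 93 counts in the controls and 242, 101 and 89 in the PS_high libraries. As CPM its groups did not overlap, with a log2 fold change of 1.27 and an edgeR p of 0.0495 before and 0.99999 after adjustment. These isoforms show how reads of a gene were divided rather than its total, and for several genes that division was all or none.

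Flt1 is known for a long form that spans the membrane and a short secreted form. Its counts were split between the 13-exon ENSMUST00000110529, with 43.6% to 59.0%, and the 30-exon ENSMUST00000031653, with 36.2% to 53.5%, in every library. The table does not say which isoform encodes which protein. For Pdgfrb, by contrast, ENSMUST00000025522 took 90.1%, 99.3% and 100% of counts in the controls and 0%, 0% and 100% in the PS_high libraries, while the log2 fold change of the gene total was 0.12. In Ocln, 69.2% of the counts of control 2 sat on ENSMUST00000022140, and 0% to 2.86% in the others. In Slc2a1, control 3 had 63.6% of its counts on the assembled MSTRG.27886.6, against 0% to 14.3% elsewhere. With annotated isoforms alone, the Slc2a1 value was 0.19 instead of -0.28. Shares of near-identical isoforms are estimates, and whether such switches come from the division of reads was not tested.

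**Figure D5:**
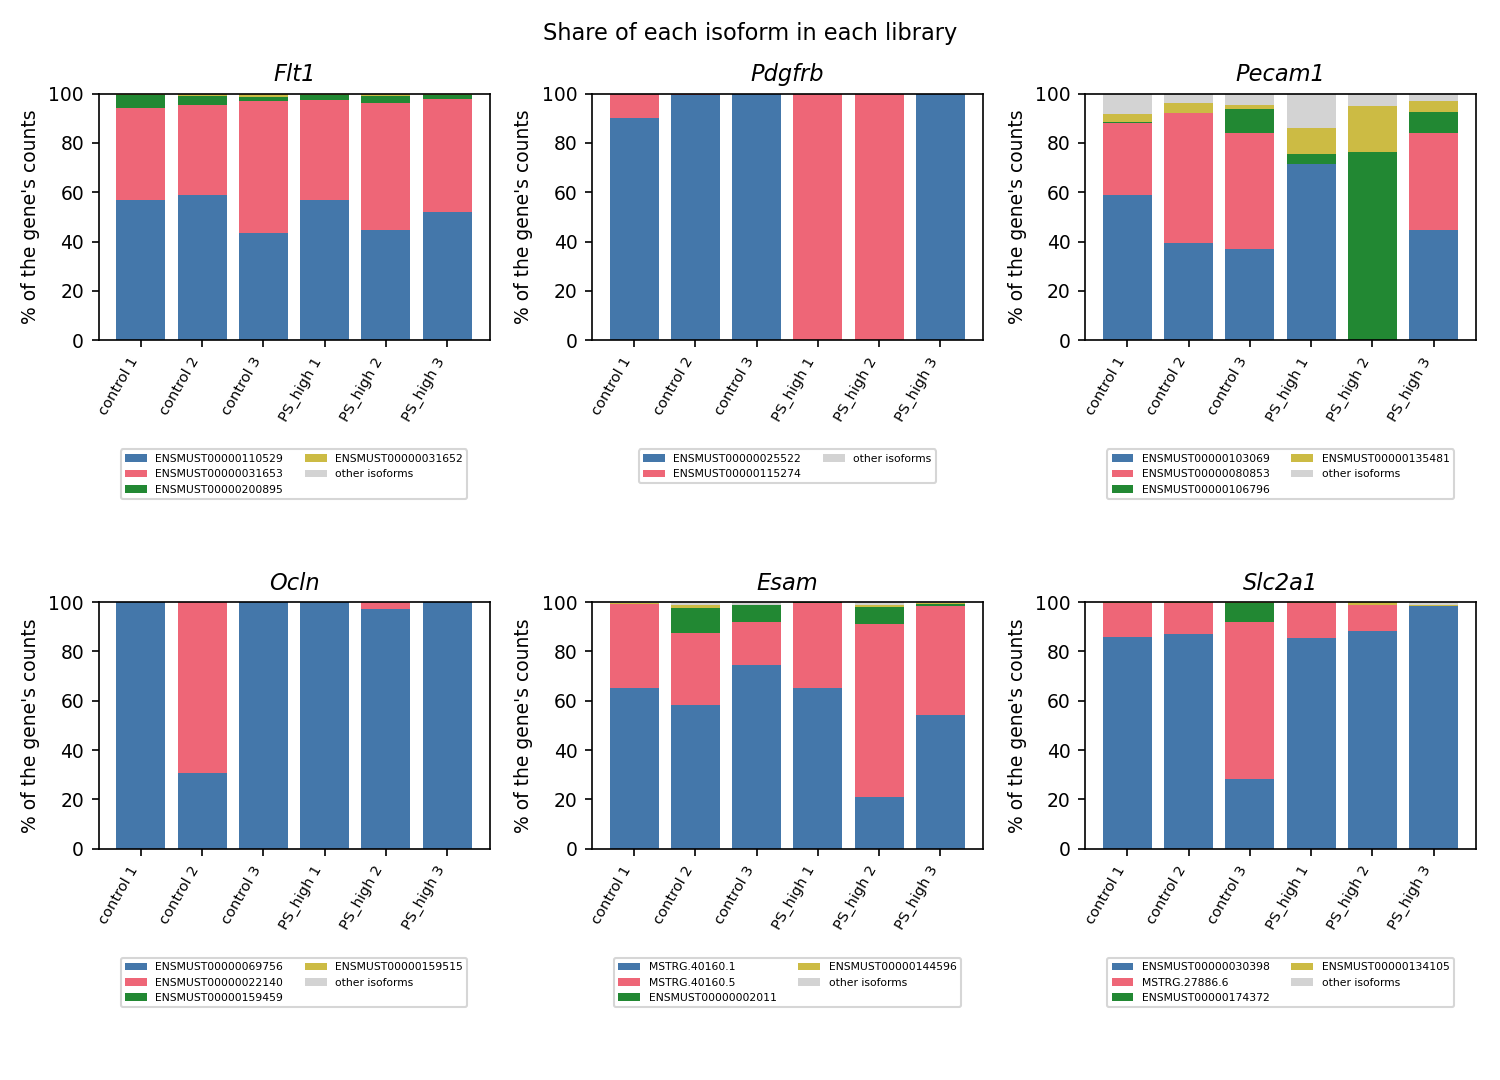
Percentage of the counts of 6 genes carried by each isoform in each library, with the 4 isoforms of most counts in colour and the others in grey. Flt1 keeps a split between 2 isoforms in each library, while Pdgfrb goes from 90.1% to 100% of ENSMUST00000025522 in the controls to 0% in PS_high 1 and 2.

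Circular RNAs, which form when an exon is joined back to an earlier one, were rare from these genes. The second table held 15 of them from 7 host genes, with 11, 5 and 7 back-splice reads in the controls and 6, 8 and 5 in the PS_high libraries, of 15658 to 19957 in each library. Only 2 had reads in at least 3 libraries and were tested. Neither passed an adjusted p under 0.05 in edgeR or DESeq2, or an unadjusted p under 0.05, against 0.0305% of 3275 circRNAs at the adjusted level (edgeR and DESeq2) and 4.95% at the unadjusted one. The most abundant, mmu_circ_0014357, closes 6 exons of Tjp1 on chromosome 7 from 65326262 to 65337146 and had 5, 2 and 1 reads in the controls and 4, 2 and 0 in the PS_high libraries (log2 fold change -0.17, SE 1.48). For mmu_circ_0010329 of Slc16a1 the counts were 1, 0 and 0 against 1, 0 and 2. The next were circRNA6562 of Slc16a1, mmu_circ_0014358 of Tjp1, circRNA8411 of Tfrc and circRNA15432 of Tjp1, with 4, 4, 3 and 2 reads in all. At this depth a difference in any of these circles was not detectable.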

How the data were processed

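Total RNA of 6 samples was depleted of ribosomal RNA and made into stranded libraries, per the labels' protocols. HISAT2, StringTie and TopHat are listed in the submitters' processing notes, and no source used here gives a version or a genome build. The authors deposited an estimated count and an FPKM value per isoform (175010 isoforms), and a count of back-splice reads and a depth-scaled signal (SRPBM) per circRNA. Per the file headers, isoforms carry a class code against the annotation.

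Estimated counts of isoforms with the class codes =, j, c, o or e were summed per gene symbol. For the 35 genes this left out 11 isoforms with 6.04% of their counts, mostly inside introns. Genes and isoforms with a mean FPKM of at least 0.5, and circRNAs with reads in at least 3 libraries, were tested with edgeR 4.0.16 (R 4.3.3, quasi-likelihood, two-sided, TMM factors, or for circRNAs the totals behind SRPBM), with Benjamini-Hochberg adjustment over all features and a threshold of 0.05. Standard errors and 95% intervals were derived from the edgeR F statistic. Scripts were tested on simulated data. Alternatives used DESeq2 1.42.0, its size factors in edgeR, limma 3.58.1 on log2(FPKM + 0.1) and log2(FPKM + 1), no filter, other sets of isoforms, a replicate block and each library left out.

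The genes and lists were chosen with earlier results of these data known. The limits of 0.5 log2 units and 2500 bases were set after the values were seen. Of the 35 genes, values in every library are given for those with an unadjusted p under 0.05 or groups that do not overlap, the 2 highest of each subgroup by FPKM, and Cldn5, Slc2a1, Pdgfrb and Acta2. Lists are given by counts and their 2 genes of smallest p, isoforms as the 6 of smallest p with at least 1 FPKM in a group, and circRNAs as the 6 with most reads. Other genes are named as chosen after their values were seen.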

Additional observations from a re-analysis of the deposited data

How the results depend on the processing

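Under all 14 alternatives 0 of the tested genes of the list passed the threshold, so none lost or gained a call. Over all genes, the count of 5 became 47 with DESeq2, 0 with limma at either pseudocount, 2 without a filter, 0 with annotated isoforms only, and 0 to 17 when a library was left out, with 17 without PS_high 1, 2 without control 1 and 0 without control 2 or PS_high 2. No label says that shared replicate numbers pair the samples. In gene values centred on a mean, not raw levels, same-numbered libraries correlated at 0.205, 0.113 and 0.059 across genes. Libraries of different number correlated at -0.138 to 0.046. Each control correlated best with its own number. Whether the numbers mark a pairing or a shared batch was not tested. With the replicate block, 0 genes were called over all genes (650 at an unadjusted p under 0.05), and 0 of the list. DESeq2 called 1 of the 72 isoforms (1.41% of all tested isoforms). The block turned Cldn5 (-0.06) and Vtn (-0.0044) below 0. Cldn5 and Slc7a5 lay so near 0 that their signs also turned without a filter (Cldn5 -0.00019), with DESeq2 or its size factors (Slc7a5 0.0024 in both), with annotated isoforms (Slc7a5 0.0014) and with all isoforms of a symbol (Slc7a5 0.0036). With limma on log2(FPKM + 0.1) and log2(FPKM + 1), fold changes turned from above to below 0 for Ly6c1 (-0.03 and -0.03), Vwf (-0.52 and -0.38), Cldn5 (-0.09 and -0.05), Ocln (-0.12 and -0.09), Esam (-0.05 and -0.04), Slco1c1 (-0.01 and -0.01), Abcg2 (-0.15 and -0.14) and Higd1b (-0.16 and -0.06). With annotated isoforms only, Esam was -0.83, Slco1a4 -0.05, Slco1c1 -2.04 and Slc2a1 0.19, and Abcb1a was not tested. When a library was left out, values crossed 0 for Flt1 (-0.12 to 0.1), Ly6c1 (-0.01 to 0.08), Itm2a (-0.38 to 0.13), Pltp (-0.33 to 0.26), Vwf (-0.1 to 0.3), Ocln (-0.09 to 0.09), Cldn5 (-0.20 to 0.31), Cdh5 (-0.15 to 0.26), Slc7a5 (-0.13 to 0.21), Slco1a4 (-0.03 to 0.3), Slco1c1 (-0.08 to 0.19), Abcc9 (-0.02 to 0.05), Acta2 (-0.33 to 0.03), Vtn (-0.25 to 0.4) and Higd1b (-0.05 to 0.28). The same held for MSTRG.15259.2 of Tfrc (-0.81 to 4.43) and mmu_circ_0014357 of Tjp1 (-1.05 to 0.56). The cause was not tested, and intervals of this width with 3 libraries a group leave the sign of such values undecided.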
